A study of Homo sapiens with 4 samples.

Results

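The promoter peaks of noncoding transcripts in the FOXK2 ChIP-seq of OVCAR5 cells were examined in the peak lists of both replicates. A peak was a member when its deposited annotation named a promoter of a RefSeq noncoding transcript, that is, a transcript whose accession begins with NR_, where HOMER's promoter runs from 1000 bp upstream to 100 bp downstream of a start. There were 421 such peaks among 12471 in replicate 1 (3.38%) and 776 among 27281 in replicate 2 (2.84%). They made up 15.5% of the 2709 promoter peaks of replicate 1 and 15.8% of the 4910 of replicate 2, and the remaining 2288 and 4134 promoter peaks lay at RefSeq coding transcripts (accessions beginning with NM_).

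OVCAR5 is a human ovarian cancer cell line, labelled as high-grade serous and derived from ascites, and it was grown here in RPMI medium with serum and no further treatment. Crosslinked, sonicated chromatin was immunoprecipitated with an antibody against FOXK2, and the study asked which genes this factor occupies. Both replicates are of this single line and single condition, so no comparison between conditions was possible. The 2 input libraries were not analysed here, and the lists hold binding sites and no RNA levels.

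FOXK2 is a forkhead transcription factor, a DNA-binding protein whose family recognises a short AT-rich core that includes the sequence TGTTTAC. Noncoding transcripts comprise long noncoding RNAs, microRNA precursors and their host genes, small nuclear and nucleolar RNAs, transcribed pseudogenes, and noncoding splice variants of genes that otherwise encode a protein. Many long noncoding RNAs start from promoters shared with a coding gene that is read in the opposite direction, so that a single site can lie before both.

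Of the noncoding promoter peaks, 317 pairs overlapped by at least 1 bp between the lists, and 50 of these (15.8%) held the heptamer TGTTTAC within 100 bp of the peak centre in both lists. The sequences printed here belong to the best-ranked such pairs, shown to let the forkhead core be seen in promoter peaks of noncoding transcripts. They were read from hg38 at the replicate 1 peak, 5′ to 3′ on the strand that reads TGTTTAC, with each TGTTTAC in capitals. The stretches at UBL7-DT, DCAF11 and UHRF2 are shorter because they touch an annotated UTR.
LOC105370943 (chr15:40906371-40906431, minus strand): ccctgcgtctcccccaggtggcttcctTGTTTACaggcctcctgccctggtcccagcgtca
DLEU2 (chr13:50126473-50126533, minus strand): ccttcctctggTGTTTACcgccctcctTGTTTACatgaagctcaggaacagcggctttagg
UBL7-DT (chr15:74461136-74461162, minus strand): ccagagtgagTGTTTACaccggcggca
SMG1P3 (chr16:21502493-21502553, minus strand): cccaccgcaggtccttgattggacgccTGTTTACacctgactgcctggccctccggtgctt
PCAT6 (chr1:202810759-202810819, plus strand): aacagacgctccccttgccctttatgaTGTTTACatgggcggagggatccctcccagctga
DCAF11 (chr14:24114867-24114893, minus strand): cgcgaggcctTGTTTACaccgactgcc
TMEM167B (chr1:109090641-109090701, minus strand): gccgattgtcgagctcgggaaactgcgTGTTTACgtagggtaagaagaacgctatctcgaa
UHRF2 (chr9:6413193-6413219, minus strand): ccgcgcagagTGTTTACttatagagct
LINC01220 (chr14:75294168-75294228, plus strand): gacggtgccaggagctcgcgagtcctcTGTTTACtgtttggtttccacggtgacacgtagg
FOXP2 (chr7:114085849-114085909, plus strand): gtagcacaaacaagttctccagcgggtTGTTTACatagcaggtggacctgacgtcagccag
HEXIM2-AS2 (chr17:45171505-45171565, plus strand): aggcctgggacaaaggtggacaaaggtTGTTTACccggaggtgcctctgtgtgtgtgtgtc
ARRDC3-AS1 (chr5:91380093-91380153, minus strand): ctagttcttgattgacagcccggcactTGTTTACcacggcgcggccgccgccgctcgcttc
In LOC105370943 the middle of the heptamer lay 1 bp from the peak centre and in HEXIM2-AS2 it lay on the centre, while in UBL7-DT it lay 59 bp away. At DLEU2 both copies lay close to the centre, 4 and 12 bp from it.

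Each peak carried a score from the authors' HOMER run, which grows with the number of sequenced tags in the peak and is scaled to its own library, so scores were ranked only within a list. Among noncoding promoter peaks the median score was 6.41 in replicate 1 (quartiles 4.90 and 9.24, range 3.02 to 35.8) and 8.77 in replicate 2 (quartiles 6.39 and 12.9, range 3.42 to 74.7). Coding promoter peaks had medians of 6.60 and 9.07, and all peaks had medians of 5.85 and 7.29. The strongest coding promoter peaks reached 188.3 in replicate 1 and 387.9 in replicate 2. The scores of a list moved in steps, of 0.189 in replicate 1 and 0.149 in replicate 2. If 1 step is 1 tag, the median noncoding promoter peak held 34 tags in replicate 1 and 59 in replicate 2, and the weakest held 16 and 23. Above the 75th score percentile of their list lay 30.6% of the noncoding promoter peaks of replicate 1 and 33.6% of those of replicate 2, against 25.0% of all peaks in each list. The shares of coding promoter peaks were 34.0% and 37.7%, and neither difference passed the test (two-sided Fisher's exact tests, adjusted p = 0.294 and 0.0803). In replicate 2 the difference passed when the nearest promoter also had to be of the class (32.2% against 37.5%, exact test, adjusted p = 0.0443) and when variants of coding genes were counted as coding (32.3% against 37.6%, adjusted p = 0.0393).

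Closeness to a start was set by the annotation that chose the peaks, so the distances are a description. The centre was within 100 bp of the nearest TSS (transcription start site) in 53.7% of noncoding promoter peaks of replicate 1 and 56.4% of replicate 2, against 57.6% and 60.4% of coding ones. It was over 300 bp upstream in 60 peaks of replicate 1 (14.3%) and 121 of replicate 2 (15.6%), beside 13.2% and 12.9% of coding promoter peaks. The focus ratio, the fraction of tags on the expected side of the peak centre, had a median of 0.738 and 0.730, beside 0.738 and 0.727 in coding promoter peaks. GC content within 100 bp of the centre had a median of 61.2% and 62.2%, below the 63.7% of coding promoter peaks in each list and above the 47.3% and 46.3% of all peaks.

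Most noncoding promoter peaks of the shorter list recurred in the longer one, and no difference from coding promoter peaks passed the test. In replicate 1, 330 of the 421 had an overlapping peak of any class in the other list (78.4%, Wilson 95% interval 74.2% to 82.1%), where 74.9% of all peaks did and 79.3% of coding promoter peaks did (two-sided Fisher's exact test, odds ratio 0.948, adjusted p = 0.802). In replicate 2, 330 of the 776 did (42.5%, 39.1% to 46.0%), where 34.2% of all peaks did and 44.2% of coding promoter peaks did (exact test, odds ratio 0.934, adjusted p = 0.529). The partner was itself annotated to a noncoding promoter for 317 peaks of each list, and 315 of the 317 pairs carried the same accession. In replicate 1 a further 9 peaks had a partner at a coding promoter, 4 had one of another class, and 91 had none. In replicate 2 these numbers were 6, 7 and 446.

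Overlap followed the score. From the highest to the lowest range of score percentiles (75 to 100, 50 to 75, 25 to 50 and 0 to 25), the overlapped share of noncoding promoter peaks was 96.1%, 82.2%, 69.4% and 52.6% in replicate 1 and 80.1%, 35.4%, 16.7% and 4.65% in replicate 2. Over all peaks the shares were 96.3%, 83.7%, 66.8% and 50.7% in replicate 1 and 75.3%, 38.5%, 17.2% and 4.50% in replicate 2, so the gradient was that of the whole lists. Over the 317 pairs the ranks had a Spearman's rho of 0.882, a description across peaks that share 2 libraries, and the centres lay a median of 28 bp apart. Both peaks were above the 90th score percentile of their list in 63 of the 317 pairs. The same count over all overlapping peaks of the lists was not made, so this number is a description.

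**Figure D1:**
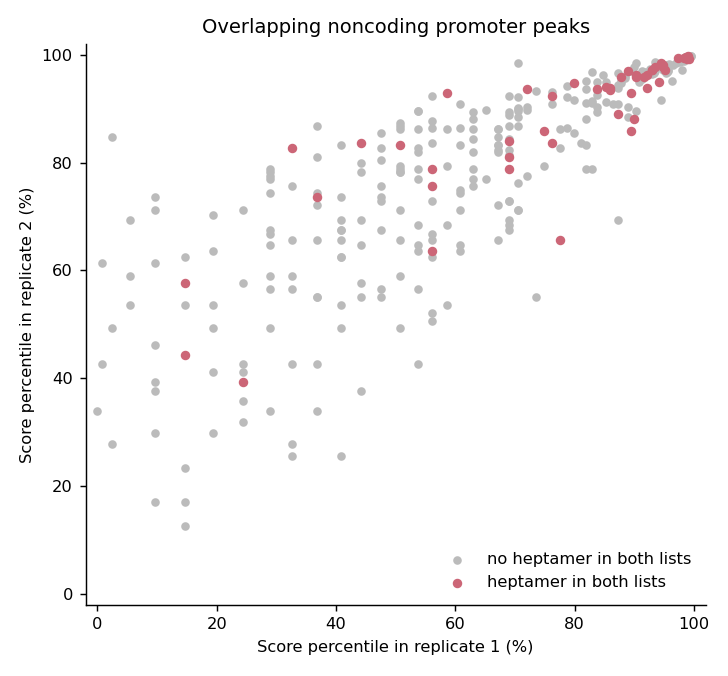
Score percentile of each of the 317 overlapping noncoding promoter peaks in replicate 1 (x axis, %) and replicate 2 (y axis, %), where 100 is the strongest peak of the whole list; red points are the 50 pairs with TGTTTAC in both lists. Pairs with a high percentile in one list mostly had a high one in the other, and the red points gather in the upper right.

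The best-ranked pair was at PDPR2P, a pseudogene of the pyruvate dehydrogenase phosphatase regulatory subunit gene (chr16:74368218-74368428 in replicate 1). It scored 35.8 at rank 51 in replicate 1 and 74.7 at rank 43 in replicate 2, with its centre 68 and 51 bp upstream of the nearest TSS. It held no TGTTTAC. The authors' lists name this gene LOC283922. Pseudogenes resemble their parent genes, and whether reads were shared with near-identical copies was not tested. The same limit holds for SMG1P3, a pseudogene of the nonsense-mediated decay kinase SMG1 (24.9 at rank 152 and 46.8 at rank 176).

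Several of the 15 best-ranked pairs were annotated to noncoding variants of coding genes, with a coding start close by. SUPT4H1, which encodes a transcription elongation factor subunit, scored 34.3 (rank 63) and 66.5 (rank 63). TBC1D15, a GTPase-activating protein for RAB7, scored 26.4 (rank 127) and 63.1 (rank 70). SHARPIN, a subunit of the linear ubiquitin ligase, scored 27.5 (rank 114) and 50.6 (rank 143). Its replicate 1 peak lay 20 bp upstream of the nearest annotated coding start of MAF1, the RNA polymerase III repressor. The deposited distance put it 90 bp downstream of a MAF1 start. In replicate 1 the peak at TCEANC2 (27.4 at rank 115, 44.2 at rank 207) lay 369 bp upstream of the start of TCEANC2. It was 11 bp upstream of the nearest annotated coding start of the neighbouring TMEM59, a regulator of autophagy. The deposited distance put it 223 bp downstream of a TMEM59 start. None of these 4 peaks held TGTTTAC in either list.

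A further group of the best-ranked pairs lay at paired starts, of a noncoding transcript and of a coding gene read the other way. The distances given are those between the starts. UBL7-DT scored 24.5 (rank 159) and 52.2 (rank 131), with the coding start of UBL7 66 bp from the start of UBL7-DT on the other strand. CRIM1-DT scored 24.1 (rank 167) and 52.3 (rank 129), at a distance of 307 bp from the start of CRIM1. ZNRD2-DT scored 22.8 (rank 189) and 51.5 (rank 139), with 2 bp between the start of ZNRD2-DT and the nearest of the annotated coding starts of ZNRD2 on the other strand. USP2-AS1, opposite the deubiquitinase gene USP2, scored 25.3 (rank 146) and 42.2 (rank 226), at a distance of 95 bp. Of these pairs, UBL7-DT held TGTTTAC.

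Long noncoding RNAs with no coding promoter in reach were among the strongest as well. LOC105370943 scored 26.4 (rank 127) and 59.9 (rank 86), 407 and 410 bp upstream of its TSS. DLEU2, the host transcript of miR-15a and miR-16-1 in a region often deleted in leukaemia, scored 29.1 (rank 99) and 44.9 (rank 201), 966 and 956 bp upstream of the nearest TSS and so near the outer edge of the promoter window of 1000 bp. PCAT6, a prostate cancer associated RNA, scored 25.1 (rank 148) and 45.4 (rank 197), with the nearest coding start, that of KDM5B, over 2000 bp away. All 3 held TGTTTAC in both lists, as SMG1P3 did. SNORA13, a small nucleolar RNA, was the annotated transcript of a pair with 24.3 (rank 163) and 42.2 (rank 226), but its nearest TSS in both lists was that of its host EPB41L4A-AS1.

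The members fell into several kinds of transcript. By RefSeq names (GRCh38.p14), which matched 412 of 421 peaks of replicate 1 and 760 of 776 of replicate 2, noncoding variants of coding genes were the most frequent, with 136 and 246 peaks. Antisense genes (-AS) had 72 and 136, other long noncoding RNAs 56 and 92, long intergenic noncoding RNAs (LINC) 33 and 82, and pseudogenes 36 and 66. MicroRNAs and hosts with a MIR name had 31 and 53, divergent transcripts (-DT) 28 and 56, small RNAs 17 and 23, and named snoRNA host genes 3 and 6. DLEU2, a microRNA host without a MIR name, was counted among the other long noncoding RNAs. That kind took all remaining genes. It included transcripts named after joined coding genes, such as INO80B-WBP1 and ZFP91-CNTF, which were also counted as noncoding genes in the comparisons that follow. The kinds ranged widely in how often a coding promoter was in reach. For LINC peaks it was 3 of 33 in replicate 1 (9.09%) and 5 of 82 in replicate 2 (6.10%), and for -DT peaks 24 of 28 (85.7%) and 43 of 56 (76.8%). A coding promoter was taken as in reach when the peak centre lay between 1000 bp upstream and 100 bp downstream of a GENCODE 44 protein-coding start.

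**Figure D2:**
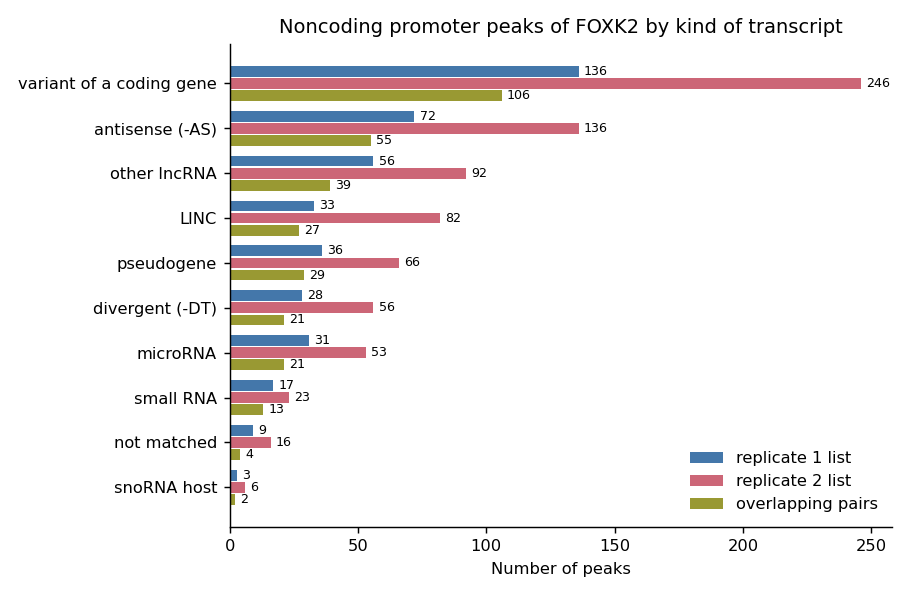
Number of noncoding promoter peaks (x axis) by kind of transcript in the list of replicate 1, in the list of replicate 2, and among the pairs that overlapped between the lists. Noncoding variants of coding genes lead with 136 and 246 peaks and 106 pairs, and snoRNA host genes are the fewest with 3, 6 and 2.

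Among genes with a MIR name, which leaves out DLEU2, the best-ranked pair was at MIR17HG, the host of the miR-17-92 cluster. It scored 22.4 (rank 200) and 37.2 (rank 319), 179 and 183 bp upstream of the nearest TSS and without TGTTTAC. The next were MIR6732 (15.1 at rank 583, 30.8 at rank 509) and MIR933 (11.1 at rank 1375, 25.6 at rank 823), the latter with its peak 84 bp inside the coding start of ATF2. MIR29B2CHG, the host of miR-29b-2 and miR-29c, scored 6.23 (rank 5476) and 11.6 (rank 5778) and held TGTTTAC in both lists. RefSeq gives 16 mature microRNAs, both arms counted, that lie in DLEU2 and MIR17HG, the 2 best-ranked host transcripts. One arm of each hairpin is shown, the arm usually taken as the guide strand, with the seed (bases 2 to 8) in capitals, from RefSeq on GRCh38.p14.
hsa-miR-15a-5p: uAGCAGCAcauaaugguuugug
hsa-miR-16-5p: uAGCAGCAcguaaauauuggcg
hsa-miR-17-5p: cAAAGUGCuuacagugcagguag
hsa-miR-20a-5p: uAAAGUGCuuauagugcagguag
hsa-miR-18a-5p: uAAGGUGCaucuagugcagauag
hsa-miR-19a-3p: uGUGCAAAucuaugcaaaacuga
hsa-miR-19b-3p: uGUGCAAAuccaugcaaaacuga
hsa-miR-92a-3p: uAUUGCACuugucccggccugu
Among the arms shown, the miR-15a and miR-16 seeds are identical, as are those of miR-17 and miR-20a and those of miR-19a and miR-19b. Their levels were not measured in these files.

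Antisense genes gave CEBPB-AS1 as a further strong pair, near the gene of the C/EBP beta factor, with 21.5 (rank 230) and 43.7 (rank 212). HEXIM2-AS2 followed with 14.9 (rank 603) and 26.5 (rank 762). Of LINC genes, LINC01220 had the best mean percentile over both lists (14.5 at rank 651, 30.2 at rank 531). LINC01881 was next (13.6 at rank 813, 34.4 at rank 390) and was ahead of it in replicate 2, and LINC00921 followed (12.8 and 24.5). Among small RNAs the best after SNORA13 were VTRNA1-2, a vault RNA (15.1 at rank 583, 24.2 at rank 938), and RNU6ATAC, the U6 RNA of the minor spliceosome (12.1 at rank 1091, 24.8 at rank 880). Among pseudogenes, SMPD4BP followed PDPR2P and SMG1P3 (12.5 at rank 1014, 25.0 at rank 869). The 2 snoRNA host pairs were SNHG29 and SNHG21. SNHG29 scored 9.43 (rank 2128) and 25.0 (rank 869), and SNHG21 scored 6.04 (rank 5777) and 11.6 (rank 5778).

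Some peaks named after a small nucleolar RNA lay at the start of the ribosomal protein gene that hosts it. SNORA21 (7.36 at rank 3872, 12.3 at rank 5048) lay 51 bp upstream of the nearest annotated RPL23 coding start in replicate 1. The deposited distance put it 12 bp downstream of an RPL23 start. SNORD43, at the RPL3 start, was in the list of replicate 1 alone (4.34), and SNORD42B, at the RPL23A start, in that of replicate 2 alone (5.95). These 3 were chosen after their values were seen.

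A list of 45 well-studied noncoding RNAs was matched by the name of the annotated transcript. Of these, 7 had a promoter peak that overlapped between the lists, 2 had one in replicate 1 alone, 6 in replicate 2 alone, and 30 in neither. Besides DLEU2, MIR17HG and MIR29B2CHG these were LINC00511 (4.90 at rank 8397, 12.8 at rank 4690), OIP5-AS1 (5.47 at rank 6955, 9.67 at rank 8342), RPPH1, the RNA of RNase P (5.09 at rank 7875, 10.1 at rank 7625), and JPX, an RNA of the X inactivation centre (4.90 at rank 8397, 5.35 at rank 19709). The replicate 1 peak at RPPH1 lay 9 bp upstream of the nearest annotated coding start of PARP2, which is read in the opposite direction. LINC00511 held TGTTTAC in both lists, and OIP5-AS1, RPPH1 and JPX did not. In replicate 1 alone were SNHG17 (6.23) and HOTAIR (4.53). In replicate 2 alone were MIR210HG (20.7), MALAT1 (11.6), VTRNA1-1 (9.52), SNHG15 (9.22), NORAD (7.14) and UCA1 (6.10). EPB41L4A-AS1 was counted in neither list, although its start was the nearest TSS of the peaks annotated to SNORA13 in both lists. For scale, the peaks named 419 different noncoding transcripts in replicate 1 and 771 in replicate 2, and the reference holds 23749. Whether the 45 listed RNAs differ from noncoding transcripts at large was not tested.

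The strongest noncoding promoter peaks without a partner are given for each list, and their scores and ranks are not compared between the lists. In replicate 1 they were CHASERR (13.0, rank 906), KAT6A-AS1 (9.62, rank 2021) and TRIP4 (9.05, rank 2363). In replicate 2 they were MST1P2, a pseudogene of the macrophage stimulating 1 gene (38.7, rank 281), MIR210HG, the host of the hypoxia-induced miR-210 (20.7, rank 1419), and LURAP1L-AS1 (19.9, rank 1573). CHASERR also had a peak in the list of replicate 2 (17.3, rank 2365), but the replicate 1 peak (chr15:92882601-92882811) and the replicate 2 peak (chr15:92882242-92882498) did not touch.

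The forkhead heptamer was enriched at the centre of noncoding promoter peaks. TGTTTAC was looked for on either strand up to 100 bp from the centre. It was in 57 of 421 peaks of replicate 1 (13.5%, Wilson 95% interval 10.6% to 17.1%) and in 23 of 842 equally wide flanking windows centred 2000 bp away on both sides (2.73%; two-sided Fisher's exact test, odds ratio 5.58, adjusted p = 7.51e-12). In replicate 2, 93 of 776 peaks (12.0%, 9.88% to 14.5%) and 38 of 1552 flanking windows had it (2.45%; exact test, odds ratio 5.43, adjusted p = 3.23e-18). Each peak gave its own flanking windows, and these tests did not use that pairing. Over all peaks the shares were 30.5% and 28.2%, and over coding promoter peaks they were 14.6% and 10.7%. The difference between noncoding and coding promoter peaks did not pass the test (two-sided Fisher's exact tests, adjusted p = 0.780 and 0.431). When the nearest promoter also had to be of the class, it was 15.2% against 10.6% in replicate 2, which passed (exact test, adjusted p = 0.00838), and 16.7% against 14.3% in replicate 1, which did not (adjusted p = 0.420). Within 20 bp of the centre there were 7.13 sites per 100 noncoding promoter peaks in replicate 1 and 7.60 in replicate 2, beside 0.475 and 0.258 in the bin from 500 to 460 bp upstream in coordinate.

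**Figure D3:**
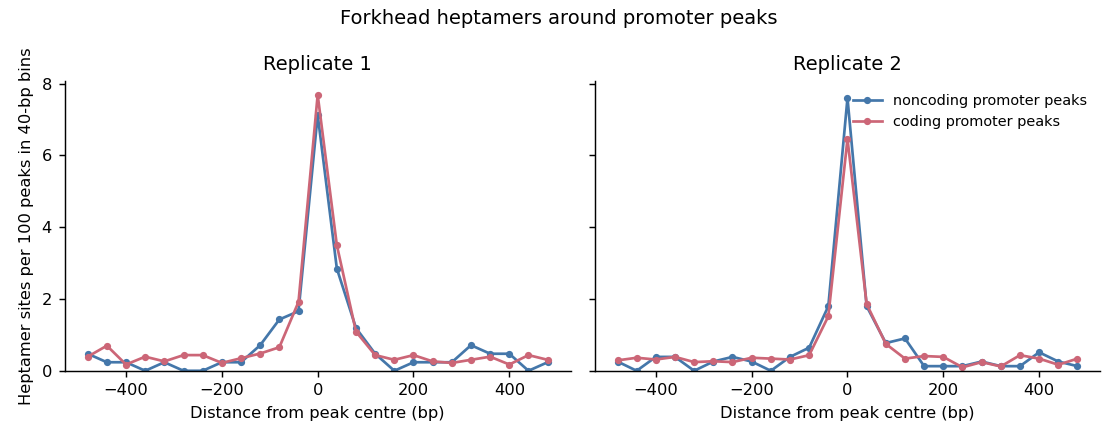
Heptamer sites per 100 peaks in bins of 40 bp (y axis) by distance from the peak centre (x axis, bp) for noncoding and coding promoter peaks in each replicate. Both lines peak in the central bin, at 7.13 and 7.69 in replicate 1 and at 7.60 and 6.46 in replicate 2.

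Heptamer shares were highest in the strongest peaks. Over the same score ranges, from the highest to the lowest, 27.1%, 10.1%, 5.88% and 5.13% of noncoding promoter peaks held it in replicate 1 and 18.4%, 8.23%, 8.06% and 11.6% in replicate 2, where there was no steady fall. Coding promoter peaks had 25.2% and 18.8% in the highest range and 5.53% and 4.65% in the lowest. All peaks had 42.0% and 35.0% in the highest and 24.6% and 26.8% in the lowest. By kind, LINC peaks of replicate 2 had it in 23 of 82 (28.0%) and those of replicate 1 in 6 of 33 (18.2%), while variants of coding genes had it in 19 of 246 (7.72%) and 14 of 136 (10.3%). Variants of coding genes held it less often than noncoding genes in replicate 2 (7.72% against 13.8%, two-sided Fisher's exact test, odds ratio 0.522, adjusted p = 0.0387), a call that was lost when the nearest promoter also had to be noncoding (8.26% against 16.8%, adjusted p = 0.0782). In replicate 1 the values were 10.3% against 14.9% (exact test, adjusted p = 0.321), which did not pass.

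Transcripts named by noncoding promoter peaks, with -AS and -DT genes included, more often had a coding start nearby on the opposite strand. Such a start was within 1000 bp of the start of the noncoding transcript for 144 of 389 peaks with a known start in replicate 1 (37.0%, Wilson 95% interval 32.4% to 41.9%), and coding promoter peaks had the start of another coding gene at 444 of 2251 (19.7%; two-sided Fisher's exact test, odds ratio 2.39, adjusted p = 5.32e-12). In replicate 2 it was 261 of 711 (36.7%, 33.2% to 40.3%) against 723 of 4062 (17.8%; exact test, odds ratio 2.68, adjusted p = 5.11e-26). The median distance between the starts was 154.5 and 151.0 bp. When the nearest promoter also had to be of the class, the shares were 28.0% against 19.5% in replicate 1 (exact test, adjusted p = 0.00811) and 26.2% against 17.5% in replicate 2 (adjusted p = 5.18e-05). By kind, 46 of 72 -AS peaks and 28 of 28 -DT peaks had such a start in replicate 1, and 85 of 136 and 55 of 56 in replicate 2. Antisense genes are named for lying opposite another gene, and -DT genes are by definition named after a coding gene that is read the other way. The shares of the other kinds ran from 0% in named snoRNA hosts to 35.7% and 31.5% in other long noncoding RNAs. Variants of coding genes had 25.7% and 26.0%. The difference from coding promoter peaks was not tested without -AS and -DT genes, whose names in part fix the outcome. A coding promoter in either direction was in reach of 257 of 421 noncoding promoter peaks in replicate 1 (61.0%, 56.3% to 65.6%) and 445 of 776 in replicate 2 (57.3%, 53.8% to 60.8%), and for those peaks an assignment to the noncoding transcript cannot be told apart from one to the coding gene. Variants of coding genes, which share the gene of a coding transcript, had one in reach at 135 of 136 and 241 of 246 peaks, and noncoding genes at 114 of 276 (41.3%) and 193 of 514 (37.5%).

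Other promoter sequences showed where noncoding and coding promoter peaks differed. CCGGAAG, the core bound by ETS factors, was in 53 of 421 noncoding promoter peaks (12.6%) against 435 of 2288 coding ones in replicate 1 (two-sided Fisher's exact test, adjusted p = 0.00467) and in 116 of 776 (14.9%) against 785 of 4134 in replicate 2 (adjusted p = 0.0208), where 5.69% and 4.90% of all peaks held it. GGGCGG, the GC box, was in 48.2% against 53.8% in replicate 1 (exact test, adjusted p = 0.0836, not passing) and in 47.3% against 54.9% in replicate 2 (adjusted p = 3.74e-04), where 18.4% and 16.2% of all peaks held it. The call in replicate 2 was lost above the median score (exact test, adjusted p = 0.0522), and replicate 1 passed when the nearest promoter also had to be of the class (adjusted p = 0.0242) and with variants counted as coding (adjusted p = 0.00278). TGANTCA, the core bound by AP-1, was more frequent in noncoding promoter peaks, at 7.36% against 4.28% in replicate 1 (exact test, adjusted p = 0.0234) and 6.19% against 4.14% in replicate 2 (adjusted p = 0.0345). The call in replicate 1 was lost with the motif within 50 bp of the centre (4.28% against 2.53%, exact test, adjusted p = 0.112). In the flanking windows of the noncoding promoter peaks it was in 5.94% and 5.99%, and in all peaks in 20.8% and 21.0%. CpG-rich windows, with GC over 50% and an observed to expected CpG ratio over 0.6, made up 68.6% against 78.1% in replicate 1 and 66.5% against 76.6% in replicate 2 (exact tests, adjusted p = 1.79e-04 and 4.52e-08; 22.7% and 18.8% of all peaks). The other 8 motifs did not pass in either list, with adjusted p from 0.107 upwards in the exact tests. They were searched on either strand and were TATTTAC with its forkhead relative TGTTTAT, the cAMP response element TGACGTCA, the NF-Y core CCAAT, the E-box CACGTG, the YY1 core AAGATGGC, the NRF1 core GCGCATGC, and ACTACAA of ZNF143.

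**Figure D4:**
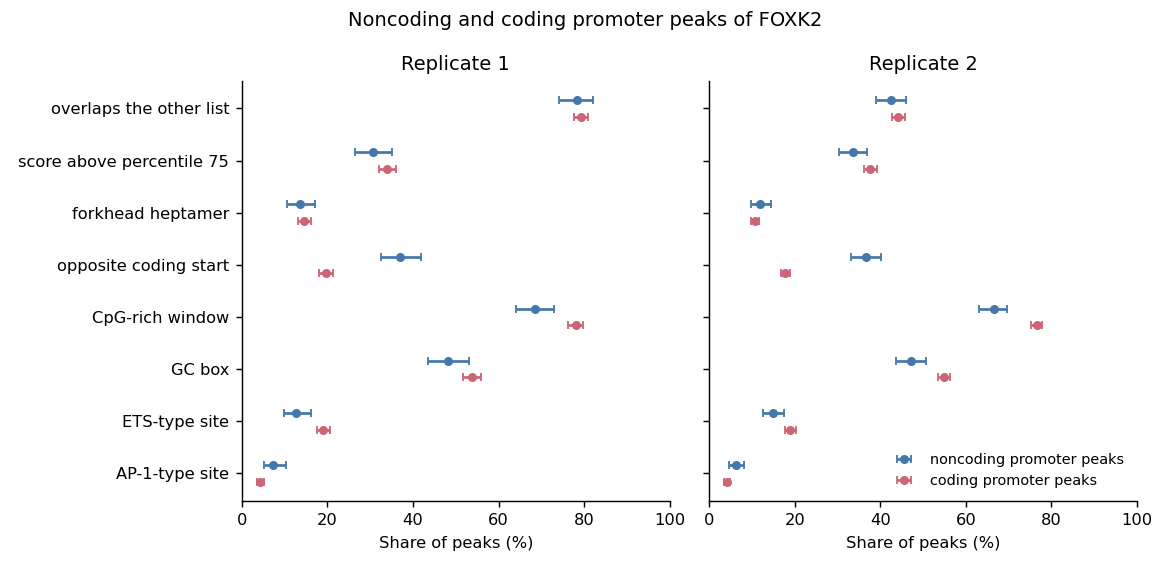
Share of noncoding and of coding promoter peaks (x axis, %) with each property named on the y axis, in each replicate; points are shares and bars are Wilson 95% intervals. The opposite coding start stands apart, at 37.0% against 19.7% in replicate 1 and 36.7% against 17.8% in replicate 2, with -AS and -DT genes included. The intervals for overlap and the forkhead heptamer overlap each other over the whole lists.

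Within the noncoding genes, peaks with a coding promoter in reach and peaks without one were different in sequence. This comparison was chosen after the values were seen. Of the peaks at noncoding genes, 1 of replicate 2 could not be placed. Peaks more than 100 bp downstream of a coding start, with no other start in reach, counted as without one. In replicate 1 these included PRDM10-DT, 263 bp past the nearest PRDM10 start, and STX5-DT, 357 bp past that of STX5. TGTTTAC was in 9 of 114 peaks with a coding promoter in reach and in 32 of 162 without (7.89% against 19.8%; two-sided Fisher's exact test, odds ratio 0.348, adjusted p = 0.0183) in replicate 1, and in 9 of 193 against 61 of 320 in replicate 2 (4.66% against 19.1%; odds ratio 0.208, adjusted p = 1.08e-05). In replicate 1 this did not pass in the part of the list above the median score (13.4% against 26.1%, exact test, adjusted p = 0.148) or when the nearest promoter had to be noncoding too (13.5% against 20.1%, adjusted p = 0.529).

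TGANTCA followed the same split. It was in 3 of 114 peaks with a coding promoter in reach against 27 of 162 without in replicate 1 (2.63% against 16.7%, adjusted p = 4.41e-04), and in 3 of 193 against 43 of 320 in replicate 2 (1.55% against 13.4%, adjusted p = 4.44e-06; two-sided Fisher's exact tests). Over all peaks of the lists, TGTTTAC was in 30.5% and 28.2% and TGANTCA in 20.8% and 21.0%, above the shares of both groups. Both motifs stood together in 5 of the 162 peaks without a coding promoter in reach in replicate 1 and in 9 of the 320 in replicate 2. They did so in 0 of the 114 and 193 with one, which allows a share of up to 2.63% and 1.55% by the limit of 3 counts. Whether the motifs met more or less often than their single shares would give was not tested, and the share of all peaks with both was not counted. CpG-rich windows made up 87.7% against 44.4% and 90.2% against 42.5% (exact tests, adjusted p = 7.74e-13 and 1.18e-27). The median GC content was 64.4% against 54.7% in replicate 1 and 65.7% against 55.5% in replicate 2, and the part of GC content in the motif shares was not tested. The share that overlapped between the lists was 79.8% against 76.5% (exact test, adjusted p = 0.687) and 45.1% against 38.8% (adjusted p = 0.274).

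**Figure D5:**
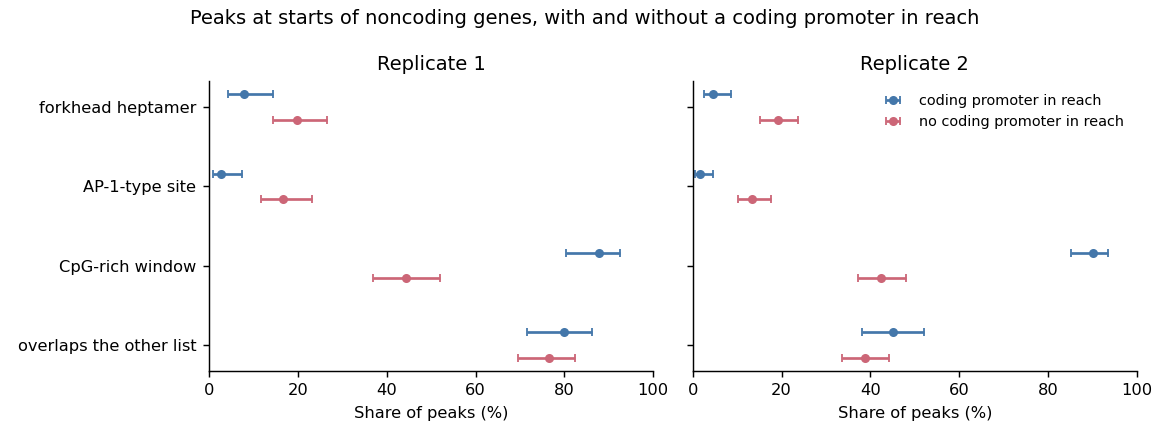
Share of peaks at noncoding genes (x axis, %) with each property on the y axis, for peaks with and without a coding promoter in reach, in each replicate; bars are Wilson 95% intervals. Both motifs are rarer and CpG-rich windows more frequent where a coding promoter is in reach, at 87.7% against 44.4% in replicate 1 and 90.2% against 42.5% in replicate 2.

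The best-ranked pairs with TGANTCA in both lists follow, to let the AP-1 core be seen in noncoding promoter peaks, whether or not a coding promoter is in reach, as the LPXN promoter is at ZFP91-CNTF. They are printed with each TGANTCA in capitals, on the plus strand of hg38.
MIR6732 (chr1:37479800-37479860): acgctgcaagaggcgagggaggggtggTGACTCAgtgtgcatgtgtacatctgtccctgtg
ZFP91-CNTF (chr11:58578284-58578344): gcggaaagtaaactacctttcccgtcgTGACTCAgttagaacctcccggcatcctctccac
VTRNA1-2 (chr5:140718808-140718868): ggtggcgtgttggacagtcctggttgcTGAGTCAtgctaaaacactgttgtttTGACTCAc
PRECSIT (chr13:110870317-110870377): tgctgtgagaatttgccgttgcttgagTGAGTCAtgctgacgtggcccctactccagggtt
LINC02288 (chr14:77040893-77040953): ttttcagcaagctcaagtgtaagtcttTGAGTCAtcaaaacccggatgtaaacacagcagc
LINC02288 also held TGTTTAC in both lists, where its peaks scored 11.7 (rank 1205) and 22.8 (rank 1118). A match to these letters describes the sequence and does not show which factor binds there.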

How the data were processed

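FOXK2 ChIP-seq of 2 replicates of OVCAR5 cells was sequenced by the authors, aligned to hg38 with Bowtie2 2.2.6 and searched for peaks with HOMER 4.10. Each list was called separately and used as deposited. The study also compared FOXK2 with input libraries, but whether input entered the calling of these lists is not given in the sources used here, and those libraries were not analysed here. The deposited peak score is scaled to each library, the deposited focus ratio is a fraction of tags, and the deposited distance to the nearest TSS is in bp.

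Members were found by their annotation. The members and lists were chosen with earlier results of these data known. Peaks overlapped at 1 bp or more. Motifs were searched in hg38 within 100 bp of the centre. Shares carry Wilson 95% intervals, which cover counting error only, and were compared within a list by two-sided Fisher's exact tests, adjusted by Benjamini-Hochberg over 48 tests. Neighbouring peaks are not fully independent, and p-values describe peaks, not cultures. Named genes were the 15 best-ranked pairs, the best 3 of each kind, the members of a list of well-studied RNAs, and the 3 strongest members without a partner in each list, with further ones for the sequences shown. Some members that these rules select are not reported here. Alternatives were peaks above the median score, stricter membership, equal list lengths, centre distance, narrower motif windows, far flanks and each replicate alone. Comparisons by coding promoter in reach, CpG content and chromosome were added after the values were seen. The steps for overlap, motifs and shares were checked on simulated lists. Python 3.11.15, numpy 2.4.6, pandas 2.3.3, scipy 1.17.1, statsmodels 0.14.6 and matplotlib 3.10.9 were used.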

Additional observations from a re-analysis of the deposited data

How the results depend on the processing

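Differences are noncoding minus coding shares in percentage points unless stated, and adjusted p are from exact tests (Fisher), and the cause of each change was not tested. Of 121 alternative values, 95 kept their direction and their side of the threshold or their size. Above the median score of each list there were 247 and 500 noncoding promoter peaks, the overlap difference of replicate 1 became 0.308 and the difference above the 75th score percentile 0.837, the GGGCGG difference of replicate 2 became -5.64 (exact test, adjusted p = 0.0522), and, between noncoding genes with and without a coding promoter in reach, TGTTTAC in replicate 1 was -12.7 (exact test, adjusted p = 0.148) and overlap in replicate 2 was -2.46. Where the nearest promoter also had to be of the class, 270 and 513 peaks and 199 pairs were left. In replicate 1 the TGTTTAC difference was then 2.37, that by coding promoter in reach -6.67, GGGCGG -8.54 (passing) and chromosome 1 2.39. In replicate 2 TGTTTAC became 4.57 (15.2% against 10.6%, exact test, adjusted p = 0.00838), the share above the 75th percentile -5.37 (exact test, adjusted p = 0.0443), variants against noncoding genes -8.58 (exact test, adjusted p = 0.0782) and chromosome 1 2.00. With lists of equal length the overlap differences were 1.01 and 0.0336. With motifs within 50 bp, TGANTCA in replicate 1 was 1.74 (exact test, adjusted p = 0.112). With variants counted as coding, TGTTTAC was 0.773 and GGGCGG -10.5 (passing) in replicate 1, and the share above the 75th percentile was -5.34 (passing, exact test, adjusted p = 0.0393) and chromosome 1 2.31 in replicate 2. Without either replicate, the count of 317 pairs was replaced by the 421 or 776 peaks of the list that was left. No paired analysis was possible because a single condition was used here. The number of tags behind a score was read from its steps and is not given by the lists.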

Other observations

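Of the chromosomes, the first alone was tested for its share of noncoding promoter peaks. Chromosome 1 held 69 of 421 in replicate 1 (16.4%) and 120 of 776 in replicate 2 (15.5%), against 8.78% and 9.89% of coding promoter peaks and 8.40% and 9.30% of all peaks (for noncoding against coding, two-sided Fisher's exact tests, odds ratios 2.04 and 1.67, adjusted p = 3.69e-05 and 5.29e-05), while chromosome 1 carries 9.29% of noncoding and 9.40% of coding reference accessions. The share was 20.6% and 21.1% for variants of coding genes and 14.5% and 12.8% for noncoding genes. When the nearest promoter had to be of the same class, the shares were 11.5% against 9.10% in replicate 1 and 12.1% against 10.1% in replicate 2, and neither passed (exact tests, adjusted p = 0.323 and 0.274). With variants counted as coding, the share in replicate 1 was 14.4% against 9.45%, which passed (exact test, adjusted p = 0.0314), and in replicate 2 it was 12.8% against 10.5%, which did not (exact test, adjusted p = 0.219). This comparison was chosen after the values were seen.

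The partners of the 13 overlapped replicate 1 peaks that were not at a noncoding promoter lay at a coding promoter in 9 and in another class in 4. LOC101928505 on chromosome 5 was, besides DLEU2, the only noncoding promoter peak with more than 1 TGTTTAC in both lists, at 5.09 (rank 7875) and 10.4 (rank 7216).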
